A study of Rattus norvegicus with 123 samples.

Results

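The liver response of rats to rosiglitazone, given daily by oral gavage for 28 d at 10 mg/kg, was set against that of water-gavaged rats killed on the same day. The arrays were chosen by their labels: those marked as of good quality in the rosiglitazone group and in the water group that the labels name as its control. This gave 8 arrays, 3 of rosiglitazone and 5 of water, out of 123 in the series. All these animals were adult male Han Wistar rats, assigned to dose groups at random and killed the day after their last dose. The group names give doses as ppm and the dose labels as mg/kg, and mg/kg is used here.

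The series set compounds that cause liver tumours without damaging DNA beside rosiglitazone and pioglitazone, which it classes as non-hepatocarcinogens. Pioglitazone was given at 63 mg/kg (5 arrays used) and 16 mg/kg (3 arrays used) for 28 d, with the same 5 water arrays as control. Wy-14643 was given at 60 mg/kg for 28 d (5 arrays), with 5 arrays of a carboxymethylcellulose group, set B, as the control that the labels name. Total RNA of frozen liver was hybridised to Affymetrix RaGene 2.0 ST arrays, and the RNA of all samples passed the submitters' integrity check. Whether the water animals and the other vehicle groups were handled in 1 laboratory is not stated.

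Rosiglitazone is an insulin-sensitising thiazolidinedione that activates the nuclear receptor PPAR gamma. This receptor pairs with the retinoid X receptor on DNA and is best known from fat tissue, where it drives adipocyte formation and lipid storage. The liver normally holds little PPAR gamma and much PPAR alpha, the receptor of fatty acid oxidation, which Wy-14643 activates. Pioglitazone is another thiazolidinedione with a different side chain on the shared head group.

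Each probe set carries an Ensembl transcript identifier and no gene name, and 0 of the 23110 probe sets could be paired with a symbol in the reference gene table. Transcripts are therefore described by identifier, level and behaviour, and the tissue label could not be checked against hepatocyte markers. The values are log2 array signals, so a difference of 1 is a 2-fold difference. The median of the array values lay between 5.49 and 5.52 on the 8 rosiglitazone and water arrays used. The root-mean-square difference of an array to the others used of its group was 0.332 to 0.340 for rosiglitazone and 0.324 to 0.333 for water. The number of arrays limits the precision: the 95% interval of a typical transcript's change reached 0.296 to either side. In whole liver, fewer cells of a type and less RNA per cell cannot be told apart.

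The liver response to rosiglitazone was small. Of 22470 distinct transcripts, 153 (0.681%) differed from water at a limma adjusted p under 0.05. Of these, 45 were higher with rosiglitazone (0.2% of those tested) and 108 were lower (0.481%). The change was at least 2-fold for 6 raised and 10 lowered transcripts. At an unadjusted p under 0.05 there were 2411, and the median change of all transcripts was 0.01. Falls made up most of the calls: 29.4% were raised, against 41.2% after quantile normalization, where 160 transcripts were called.

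The raised transcripts changed by a median of 0.53 on the log2 scale, between 0.30 and 2.93. Those lowered had a median of -0.56, with falls of 0.25 to 1.51. Apart from a pair at 2.93 and 2.73, no rise exceeded 1.33, and 17 of the 45 were below 0.5. Among the falls, 36 of the 108 were below 0.5 and 62 lay between 0.5 and 1. The rosiglitazone and water arrays did not overlap for 44 of the 45 raised and 94 of the 108 lowered transcripts. Over all transcripts, 8.65% showed no overlap.

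**Figure D1:**
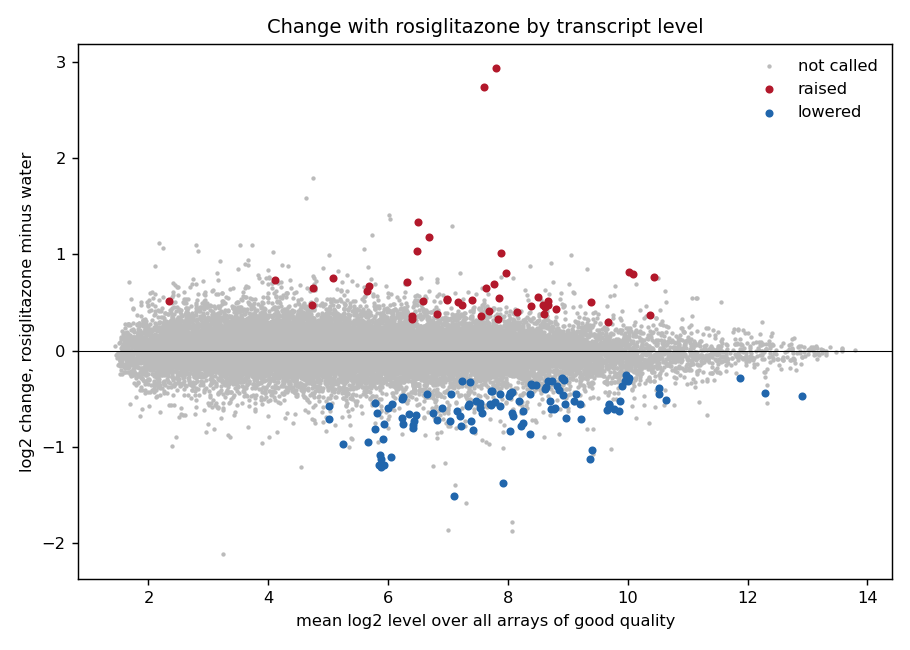
Each point is 1 of 22470 transcripts. The horizontal axis is its mean log2 level over the arrays of good quality and the vertical axis its log2 change, rosiglitazone minus water. The 45 raised (red) and 108 lowered (blue) transcripts lie mostly right of the median level of 5.5, and a pair of rises near 3 stands above the rest.

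The called transcripts were mostly abundant ones. With all transcripts split into 4 equal classes by mean level, the raised ones counted 1, 4, 14 and 26 from the dimmest class to the brightest. The counts of lowered transcripts in the same order were 0, 3, 34 and 71. Their median levels were 7.64 for the raised and 7.97 for the lowered transcripts, against 5.5 for all. Part of the count is repetition, since 32 of the 153 had a partner among the calls with a residual correlation above 0.9 over all arrays. Counting each correlated group once left 41 raised and 94 lowered. The largest such group held 6 lowered transcripts, which moved together by -1.21 to -1.08. These 6 were among the 10 falls of at least 2-fold.

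The largest rises belonged to ENSRNOT00000012537 and ENSRNOT00000055333, which moved almost as 1 signal, with a residual correlation of 0.99 over 112 arrays. ENSRNOT00000012537 had log2 levels of 8.27, 8.59 and 9.00 in the rosiglitazone arrays. In the water arrays its levels were 5.52, 6.05, 5.00, 5.34 and 6.54. Every rosiglitazone array thus lay above every water array, but only transcripts without overlap between these arrays could be named. Means were 8.62 ± 0.36 (SD, n = 3) with rosiglitazone and 5.69 ± 0.61 (SD, n = 5) with water, a change of 2.93 (SE 0.51, limma adjusted p = 0.000587). ENSRNOT00000055333 had levels of 8.05, 8.37 and 8.77 with rosiglitazone and of 5.45, 5.89, 5.07, 5.60 and 6.31 with water. It too showed no overlap, and its change was 2.73 (SE 0.50, limma adjusted p = 0.0013).

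These rosiglitazone levels lay within the span of the other vehicle control groups. For ENSRNOT00000012537 the other control groups of 28 d averaged 10.32 ± 0.53 (SD, n = 5) for carboxymethylcellulose set B and 10.39 ± 0.19 (SD, n = 4) for corn oil set B. Carboxymethylcellulose set A averaged 7.46 ± 1.51 (SD, n = 5), set C 6.08 ± 0.45 (SD, n = 3) and corn oil set D 6.28 ± 0.74 (SD, n = 4). The water group was the lowest of these 6 control groups. Against the mean of the other 5 control groups, rosiglitazone differed by 0.51 (SE 0.43, limma adjusted p = 0.537) and water by -2.42 (SE 0.35, limma adjusted p = 1.43e-07). ENSRNOT00000055333 gave 0.50 for rosiglitazone (adjusted p = 0.532) and -2.23 for water (adjusted p = 5.09e-07). The rosiglitazone and water arrays chose the 4 named transcripts. Tests of these arrays against the other controls, here and below, are therefore a description and no separate support. Their p-values rest on the spread of arrays within groups and not on that between control groups. Vehicle, study set and water group cannot be told apart here.

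The largest falls were those of ENSRNOT00000006188 and ENSRNOT00000010898, whose residual correlation was 0.29. ENSRNOT00000006188 had log2 levels of 5.86, 5.16 and 5.92 with rosiglitazone. The water arrays had 6.28, 7.47, 7.45, 7.33 and 7.25. The groups did not overlap, as the naming rule required, although 1 water array lay near the rosiglitazone arrays. Its means were 5.65 ± 0.42 (SD, n = 3) with rosiglitazone and 7.16 ± 0.50 (SD, n = 5) with water, a change of -1.51 (SE 0.36, limma adjusted p = 0.0189). Here the water group was near the other control groups, which it exceeded by 0.09 (adjusted p = 0.86), and rosiglitazone lay 1.42 below them (log2 difference -1.42, SE 0.31, adjusted p = 0.000758). The call against water did not hold without rosiglitazone replicate 2 (adjusted p = 0.213), rosiglitazone replicate 4 (0.078) or water replicate 2 (0.0599).

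ENSRNOT00000010898 had log2 levels of 7.49, 6.67 and 6.92 with rosiglitazone and of 8.22, 8.36, 8.24, 8.33 and 8.85 with water. The groups did not overlap, as the naming rule required. Its means were 7.03 ± 0.42 (SD, n = 3) with rosiglitazone and 8.40 ± 0.26 (SD, n = 5) with water, a change of -1.37 (SE 0.26, limma adjusted p = 0.00198). The water group was the highest of the 6 control groups for this transcript, 0.88 above the other 5 (adjusted p = 0.000108). Rosiglitazone lay below those 5 by a log2 difference of -0.49 (adjusted p = 0.151).

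**Figure D2:**
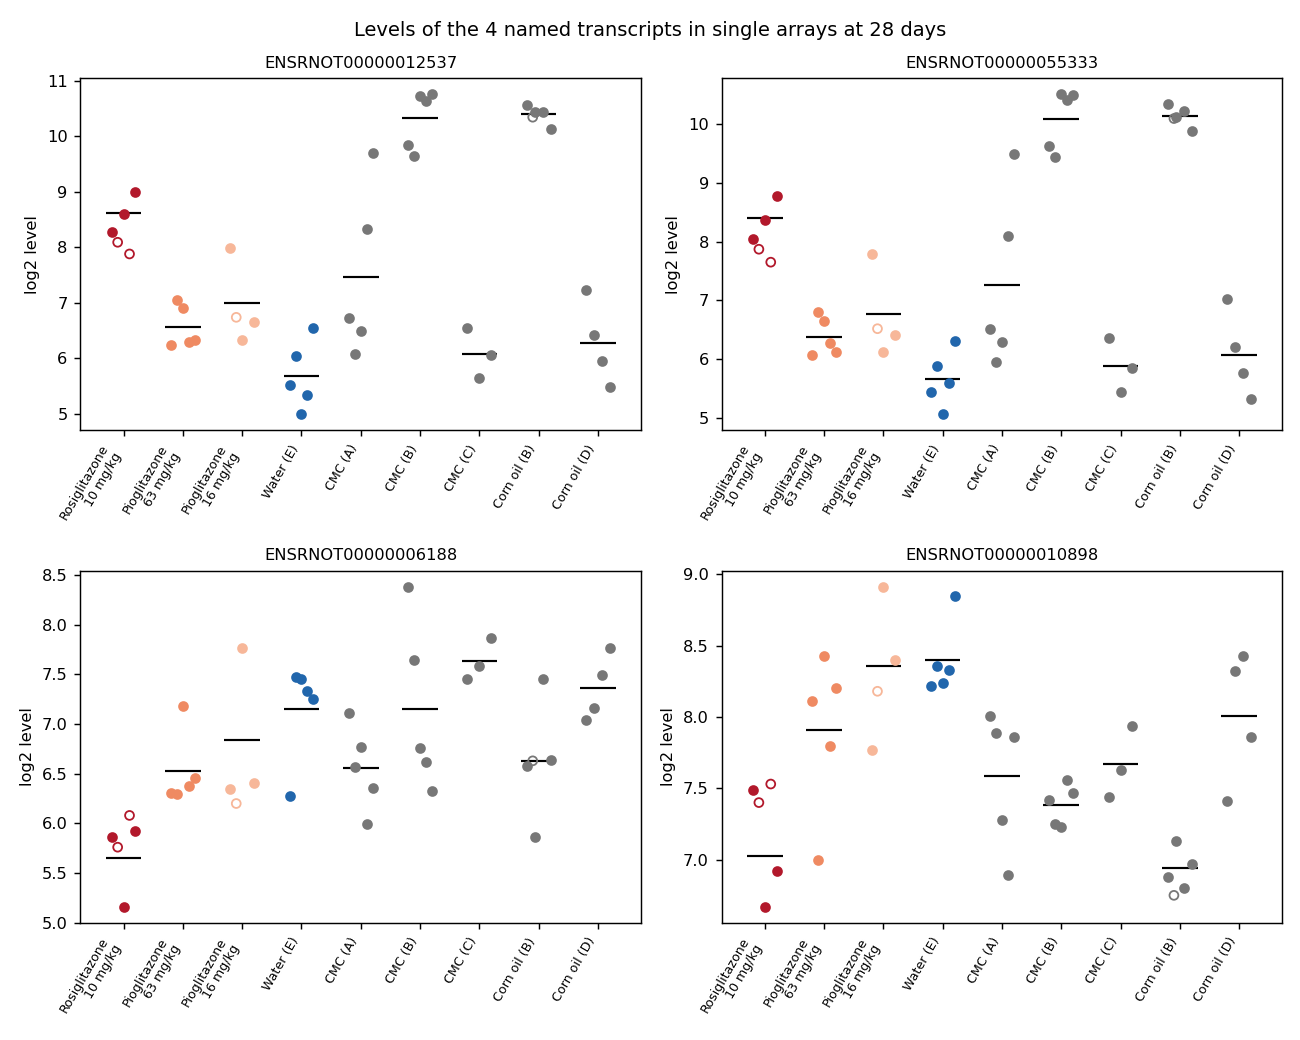
Log2 levels of the 4 named transcripts in single arrays of rosiglitazone, both pioglitazone doses, water and the other 5 control groups of 28 d. Filled points are arrays of good quality, open points are arrays not so marked, and lines are means of the filled points. The filled points of rosiglitazone and water separate in every panel, as the naming rule required. The mean of ENSRNOT00000012537 runs between 5.69 in water and 10.39 in corn oil set B.

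The 2 rosiglitazone arrays not marked as of good quality, replicates 3 and 5, took no part in choosing transcripts. ENSRNOT00000012537 had levels of 8.09 and 7.88 there, and ENSRNOT00000055333 of 7.87 and 7.65, all above the water arrays. ENSRNOT00000006188 had 5.76 and 6.08, and ENSRNOT00000010898 had 7.40 and 7.53, all below the water arrays. Against the water mean, the raised transcripts had medians of 0.35 in replicate 3 and 0.37 in replicate 5. The 3 arrays that chose them gave 0.50, 0.54 and 0.58. For the lowered transcripts the medians were -0.47 in replicate 3 and -0.49 in replicate 5, against -0.42, -0.59 and -0.67 in the arrays that chose them. The water mean used for this choice enters all of these values.

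Replicates 3 and 5 were also set against the other 5 control groups of 28 d, whose arrays were not in the contrast that chose the transcripts but did add to its estimates of spread. The medians of the raised transcripts were 0.16 and 0.16, against 0.01 and 0.01 for all transcripts. In both arrays together, 29 of the 45 (64.4%) were above these controls, as were 35.1% of all transcripts. The lowered transcripts had medians of -0.24 and -0.18, and 73 of 108 (67.6%) were below in both arrays, as were 32.4% of all transcripts. The medians against the other controls thus ran the same way as those from water and were smaller. The study set differs between the arrays compared, and its part in these differences was not tested.

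Of the 6 control groups, water stood farthest from the mean of the rest, with a root-mean-square difference of 0.237 against 0.159 to 0.208 for the others. Rosiglitazone stood at 0.253 from the mean of the 5 control groups other than water. It differed from them by over 0.5 for 950 transcripts, and water did so for 773. Against the other 5, it was higher for 8.06% and lower for 7.57% of transcripts at an adjusted p under 0.05. Rosiglitazone, with 3 arrays where water had 5, was higher for 4.46% and lower for 5.07% at that threshold. These shares depend on the number of arrays and do not order the distances. The raised transcripts had a median of 0.38 in rosiglitazone and of -0.19 in water against these groups. Lowered transcripts had medians of -0.29 in rosiglitazone and 0.24 in water. Since the rosiglitazone and water arrays chose these transcripts, their distances from the other controls are given as a description.

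For 39 of the 45 raised transcripts, the rosiglitazone mean was above all 6 control means, which was so for 16.1% of all transcripts. For 64 of the 108 lowered transcripts it was below all 6, against 19% of all. In the remaining 6 raised and 44 lowered transcripts, rosiglitazone lay within the span of control means. The water mean was the highest of the 6 for 64 of the 108 lowered transcripts (59.3%, against 18.7% of all). It was the lowest for 20 of the 45 raised transcripts (44.4%, against 24.5% of all). The 6 correlated falls near -1.1 lay -0.02 to 0.07 from the other controls in rosiglitazone and 1.15 to 1.2 above them in water.

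**Figure D3:**
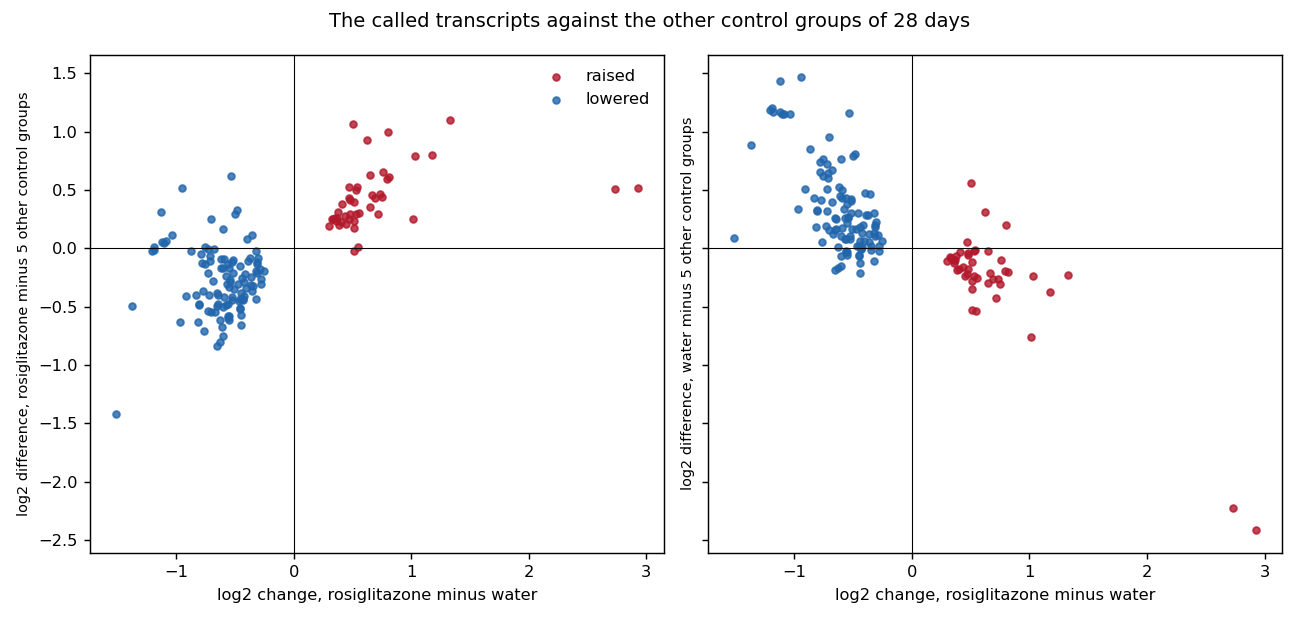
Each point is 1 of the 153 called transcripts. The horizontal axis is the log2 change against water, and the vertical axes are the log2 differences of rosiglitazone (left) and of water (right) from the mean of the other 5 control groups of 28 d. The pair of large rises sits near 0.5 in rosiglitazone and below -2 in water.

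Direct comparisons with pioglitazone were made at unlike doses, so they compare the dosed groups and not the compounds at matched dose. Against pioglitazone at 63 mg/kg, 1 transcript differed at an adjusted p under 0.05 (0.00445% of those tested), with 1453 at an unadjusted p under 0.05. A typical 95% interval of that difference reached 0.296 to either side. Against pioglitazone at 16 mg/kg, 27 transcripts differed (0.12%), 12 of them higher and 15 lower with rosiglitazone. The higher share of these 27 was 44.4%, against 56.7% after quantile normalization and 33.3% when each array was centred on its median.

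None of the 153 called transcripts differed from pioglitazone at 63 mg/kg in limma (0 of 153). At an unadjusted p under 0.05, 29 of the 45 raised transcripts were higher with rosiglitazone, and of the 108 lowered transcripts 30 were lower and 1 was higher. Over all transcripts 2.84% were higher and 3.63% lower. The rosiglitazone arrays that chose the lists enter this difference, so its direction in the lists is no separate evidence. Against 16 mg/kg, 6 raised and 6 lowered transcripts differed at the adjusted threshold. The rosiglitazone and pioglitazone comparisons share the 5 water arrays, so their changes are given side by side only. The median change of the raised transcripts was 0.53 for rosiglitazone, 0.24 for pioglitazone at 63 mg/kg and 0.19 at 16 mg/kg. For the lowered transcripts it was -0.56, -0.44 and -0.20 in the same order. The rosiglitazone arrays chose these lists and the pioglitazone arrays did not, so these medians do not order the dosed groups. Against water over all 22470 transcripts, pioglitazone at 63 mg/kg called 542, 210 raised and 332 lowered, with 5 arrays where rosiglitazone had 3. Pioglitazone at 16 mg/kg called 11.

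The named transcripts were also chosen with these rosiglitazone arrays. Among them, ENSRNOT00000012537 averaged 8.62 ± 0.36 with rosiglitazone and 6.57 ± 0.38 (SD, n = 5) with pioglitazone at 63 mg/kg. The difference of 2.05 had a 95% interval of 1.04 to 3.07 but did not pass adjustment (adjusted p = 0.206). ENSRNOT00000010898 was lower with rosiglitazone than with pioglitazone at 16 mg/kg, at 7.03 ± 0.42 against 8.36 ± 0.57 (SD, n = 3 each). That difference of -1.33 (SE 0.29) passed the threshold (adjusted p = 0.0189), and the difference of -0.88 from 63 mg/kg did not (adjusted p = 0.345). For ENSRNOT00000006188 the difference from 63 mg/kg was -0.88, with a 95% interval of -1.60 to -0.16 (adjusted p = 0.653).

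The transcript that differed from pioglitazone at 63 mg/kg was ENSRNOT00000058162, named after its values were seen. Its levels were 8.54, 8.13 and 9.17 with rosiglitazone. The pioglitazone arrays had 7.73, 5.45, 7.12, 7.44 and 7.37. Every rosiglitazone array was higher, with a difference of 1.59 (SE 0.30, limma adjusted p = 0.0201). The water arrays averaged 7.87 ± 0.56 (SD, n = 5), and the change of rosiglitazone against water was 0.74 (adjusted p = 0.295). Without rosiglitazone replicate 4, or without the pioglitazone array at 5.45, no transcript differed from this dose in limma, with 1306 and 1327 at an unadjusted p under 0.05. The call also ended with the arrays not of good quality added to the fit, with array weights added, and in both fits of fewer groups. The rosiglitazone arrays not of good quality had 7.31 and 5.88. The other 5 control groups of 28 d averaged 5.15 to 5.61, below the means of the water group and of both thiazolidinediones.

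The change with rosiglitazone was also tested against the change with the PPAR alpha agonist Wy-14643, each measured against its own control. The difference passed the threshold for 3185 transcripts (14.2%), 1482 of them higher and 1703 lower for rosiglitazone. Of the 45 raised transcripts, 31 differed, 30 of them higher for rosiglitazone. Of the 108 lowered transcripts, 52 differed, 47 of them lower for rosiglitazone. The rosiglitazone and water arrays that chose these transcripts enter this difference, so the counts for the lists support no direction. The same holds for the named transcripts, whose values are given side by side without a test. ENSRNOT00000012537 had a log2 change of 2.93 with rosiglitazone and of -0.22 with Wy-14643. Its level was 8.62 with rosiglitazone against 5.69 in water, and 10.10 with Wy-14643 against 10.32 in its control. The rosiglitazone level was thus below the Wy-14643 level, and the controls lay far apart. ENSRNOT00000006188 had a change of -1.51 with rosiglitazone and of 0.13 with Wy-14643.

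A further 3 transcripts, picked in these same data for their responses to other compounds, did not pass the test with rosiglitazone. Their values with Wy-14643 are therefore given as a description. ENSRNOT00000044127 averaged 5.90 ± 0.99 (SD, n = 3) with rosiglitazone and 5.45 ± 2.18 (SD, n = 5) with water (change 0.45, adjusted p = 0.885), while Wy-14643 raised it by 5.44 (adjusted p = 2.89e-13). ENSRNOT00000034289 and ENSRNOT00000017310 had differences of -0.32 and -0.12 with rosiglitazone (adjusted p = 0.879 and 0.949), and of -5.07 and -2.51 with Wy-14643 (adjusted p = 4.18e-20 and 4.81e-12).

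In treatments whose arrays are separate from the rosiglitazone and water arrays, the lowered transcripts were often lowered too. All groups shared 1 fit, so the estimates of spread that helped to choose the lists enter these calls too, here and below. The median residual SD was 0.17 for the raised, 0.18 for the lowered and 0.2 for all transcripts. The shares given beside the lists are not matched for this spread. Wy-14643 lowered 47 of the 108 (43.5%), against 12.5% of all transcripts, and raised 15 (13.9%), against 11.9% of all. The lowered list holds mainly abundant transcripts, and in the 2 brighter level classes of all transcripts Wy-14643 lowered 21.9% and raised 19.3%. The median change of the 108 with Wy-14643 was -0.20. Methapyrilene at 30 mg/kg for 28 d lowered 19 of the 108 (17.6%, against 4.06% of all) and raised 5 (4.63%, against 5.37%). Piperonyl butoxide lowered 19 (17.6%, against 5.71%) and raised 8 (7.41%, against 4.93%). In those level classes, the lowered shares were 6.16% for methapyrilene and 10.1% for piperonyl butoxide, and the raised shares 8.82% and 8.06%.

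Cyproterone acetate, M group, for 28 d lowered 19 of the 108 (17.6%, against 5.14% of all) and raised 9 (8.33%, against 6.16%). When each array was centred on its median it raised 14. 1,4-Dichlorobenzene raised more of the 108 than it lowered, 23 (21.3%, against 3.89%) and 13 (12%, against 2.07%). Phenobarbital at 28 d raised 2 and lowered 2 of them, against 0.952% raised and 0.28% lowered of all transcripts. The highest share came with methapyrilene at 100 mg/kg for 14 d, which lowered 55 of the 108 (50.9%, against 23.3%) and raised 25 (23.1%, against 24.8%). In the 2 brighter level classes, this dose lowered 24.3% and raised 38.3%, and cyproterone acetate lowered 8.24% and raised 11%. There, 1,4-dichlorobenzene lowered 3.45% and raised 7.13%, and phenobarbital at 28 d lowered 0.401% and raised 1.66%. Counts over these 6 compounds at 28 d took cyproterone acetate from its M group. Of the 108, 47 were lowered by none, 28 by 1, 15 by 2 and 18 by at least 3, and 34 were raised by at least 1. The same counts were not made over all transcripts, so these cannot be set against a background share.

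Other groups and days did not all lower this list. In the F group, cyproterone acetate raised 30 of the 108 at 14 d (27.8%, against 7.53% of all) and lowered 19 (17.6%, against 6.21%). At 28 d the F group had 24 raised (22.2%, against 8.91%) and 26 lowered (24.1%, against 6.24%). The M group at 14 d had 13 raised (12%, against 5.22%) and 18 lowered (16.7%, against 4.72%). In the 2 brighter level classes, cyproterone acetate in the F group raised 12.8% and lowered 9.71% at 14 d. The F group shares there were 14.5% and 10.2% at 28 d, and the M group shares 9.64% and 6.83% at 14 d. Phenobarbital raised 4 at 14 d (3.7%, against 0.672%) and lowered 0 in limma (against 0.765%). At an unadjusted p under 0.05, 16 of the 108 were higher (14.8%) and 6 lower (5.56%). Of all 22470 transcripts, 2862 passed that threshold either way. At 90 d phenobarbital raised 6 (5.56%, against 1.36%) and lowered 2 (1.85%, against 0.623%). Methapyrilene at 30 mg/kg for 14 d raised 2 (1.85%, against 2.31%) and lowered 8 (7.41%, against 1.07%), and piperonyl butoxide for 14 d raised 4 (3.7%, against 1.23%) and lowered 5 (4.63%, against 0.676%). The shares raised and lowered in the brighter classes were 1.01% and 1.45% for phenobarbital at 14 d, and 2.43% and 0.997% at 90 d. They were 3.55% and 1.71% for this methapyrilene dose at 14 d, and 2.22% and 1.16% for piperonyl butoxide at 14 d.

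The raised transcripts showed no single pattern over these treatments. Of the 45, 40 lay in the 2 brighter level classes, so shares in those classes are given too. Wy-14643 raised 6 of the 45 (13.3%, against 11.9% of all transcripts and 19.3% of the brighter ones) and lowered 9 (20%, against 12.5% and 21.9%). Cyproterone acetate in the M group for 28 d raised 8 (17.8%, against 6.16% and 11%) and lowered 0 (against 5.14% and 8.24%), with 16 higher and 0 lower at an unadjusted p under 0.05 in limma. Methapyrilene at 30 mg/kg for 28 d raised 4 (8.89%, against 5.37% and 8.82%) and lowered 2 (4.44%, against 4.06% and 6.16%), which is near those shares. Piperonyl butoxide for 28 d raised 4 (8.89%, against 4.93% and 8.06%) and lowered 6 (13.3%, against 5.71% and 10.1%). 1,4-Dichlorobenzene raised 1 (2.22%, against 3.89% and 7.13%) and lowered 3 (6.67%, against 2.07% and 3.45%). Methapyrilene at 100 mg/kg for 14 d raised 22 (48.9%, against 24.8% and 38.3%) and lowered 3 (6.67%, against 23.3% and 24.3%). When each array was centred on its median it lowered 11, and after quantile normalization 6. Phenobarbital at 28 d called 0 of the 45 in limma, with 1 at an unadjusted p under 0.05.

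**Figure D4:**
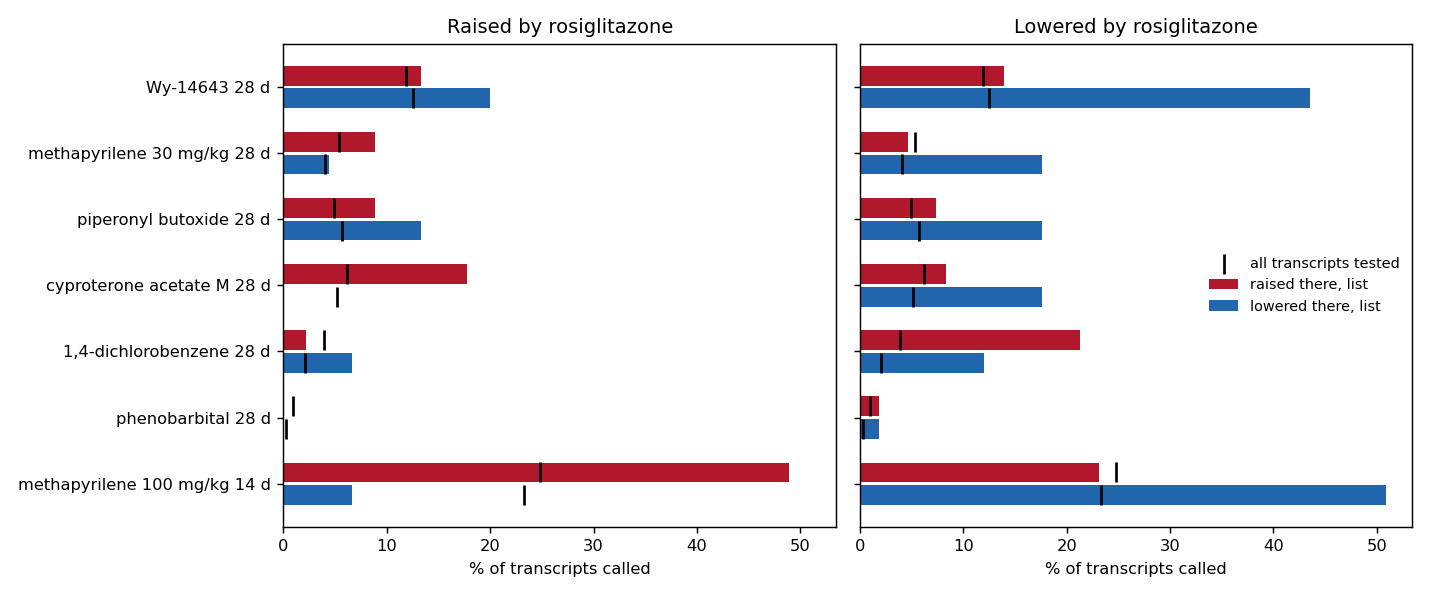
Shares of the transcripts raised (left) and lowered (right) by rosiglitazone that were called raised (red bars) or lowered (blue bars) in 7 other treatments, in percent. Black ticks give the same share over all 22470 transcripts. Blue bars exceed their ticks in each of these 7 treatments on the right, with 43.5% against 12.5% for Wy-14643. Red bars there also exceed theirs except with methapyrilene, with 21.3% against 3.89% for 1,4-dichlorobenzene. The ticks are not matched to the level or spread of the lists.

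The corn oil controls of 28 d in set D form an F and an M group, 4 arrays each, and some of these transcripts differed between them. Of the 108 lowered by rosiglitazone, 23 had lower levels in F controls (21.3%, against 3.6% of all transcripts) and 9 had higher levels (8.33%, against 4.09%). Of the 45 raised, 8 were higher in F controls (17.8%, against 4.09% of all) and 3 were lower (6.67%, against 3.6%). In the brighter level classes used above, 7.04% of transcripts were higher in F controls and 5.75% lower. The share of 6.67% is near the latter. ENSRNOT00000010898, lowered by rosiglitazone, was 0.76 higher in F controls (limma adjusted p = 0.0387). The letters are not spelled out, and the protocol speaks of male rats only.

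The count of 153 rested on few arrays. Without rosiglitazone replicate 2 it was 49, and without rosiglitazone replicate 4 it was 24. The 2 rosiglitazone arrays not of good quality were also added, along with the others so marked except a second array of a carboxymethylcellulose set A replicate. The count was then 425, among them 142 of the 153. With the rosiglitazone and water arrays fitted alone, 1 transcript passed, although 2526 had an unadjusted p under 0.05. Leaving out each of the 8 arrays in turn, 8 transcripts were called every time, 5 raised and 3 lowered. These included ENSRNOT00000012537, ENSRNOT00000055333 and ENSRNOT00000010898, and a correlated pair of raised transcripts with changes of 0.81 and 0.79.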

How the data were processed

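Liver RNA of all samples was measured on arrays. The authors deposited log2 expression values of 23110 probe sets, made with RMA and affy per the submitters' processing notes, which give no version. The sources used here do not say if a single normalization covered all arrays. Groups, doses, days, quality marks and the control of each treated group were taken from the labels.

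For 640 probe sets the values equalled those of an earlier one on every array, and these were left out. The other 22470 were fitted with limma 3.58.1 in R 4.3.3, with 1 mean for each of 29 groups over the 112 arrays marked as of good quality (11 were not). The fit had 83 residual and 4.23 prior degrees of freedom. Tests were two-sided, with Benjamini-Hochberg adjustment over all 22470 and a threshold of 0.05. The p-values measure the spread between arrays of separate animals as labelled. The procedure was tested on simulated data.

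The reference gene table, with 47357 genes, has 0 entries with Ensembl identifiers. The planned gene lists, cell type markers and named genes by symbol could not be run. The rule for named genes, the largest rises and falls among called transcripts whose arrays do not overlap, was applied to transcripts and limited to 2 in each direction. The comparison, the lists and the rule were chosen with earlier results of these data known. Shares of calls under other settings in the other compounds, the comparison of replicates 3 and 5 with the other controls, the shares in the 2 brighter level classes and the F against M comparison were added after the data were examined.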

Additional observations from a re-analysis of the deposited data

Results flagged for a closer look

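Dixon's test for a single array standing apart was run on the 4 named transcripts, ENSRNOT00000058162 and the 3 transcripts picked for their responses to other compounds. It covered these groups of 4 to 5 arrays at 28 d: pioglitazone 63 mg/kg, water, carboxymethylcellulose sets A and B, and corn oil sets B and D. The array medians were tested in the pioglitazone 63 mg/kg and water groups only. Other groups were not tested. In 50 such tests 4 arrays were marked, and chance marks about 1 in 20. ENSRNOT00000006188 was 7.18 in pioglitazone 63 mg/kg replicate 3, against 6.30 to 6.46 in the other 4 arrays. The same transcript was 6.28 in water replicate 1, against 7.25 to 7.47 in the other 4 arrays. ENSRNOT00000010898 was 8.85 in water replicate 5, against 8.22 to 8.36 in the others. ENSRNOT00000058162 was 5.45 in pioglitazone 63 mg/kg replicate 2, against 7.12 to 7.73 in the others. The rosiglitazone group, with 3 arrays, was too small for this test.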

How the results depend on the processing

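Counts of rosiglitazone against water (153), pioglitazone 63 mg/kg (1) and pioglitazone 16 mg/kg (27) changed with the processing, in that order as follows, and the cause was not tested. All arrays, except the second array of a carboxymethylcellulose set A replicate, gave 425, 4 and 197. Array weights added to that fit gave 826, 9 and 373. Neither of these fits called ENSRNOT00000058162. Fits of only the groups compared gave 1, 0 and 0 (2526, 1417 and 1927 unadjusted), and fits of the water, rosiglitazone and pioglitazone groups 5, 0 and 0 (2466, 1563 and 2287 unadjusted). Leaving out the dimmest 40%, so that fewer were tested, gave 238, 5 and 45. The pioglitazone 63 count was 2 with centred arrays, 4 with quantile normalization, 5 with trend and robust variances and 2 with the replicate block. Against the mean of 6 control groups, which adds animals of other study sets, 1521 were called, 96 of the 153 among them. At thresholds of 0.1 and 0.01, 275 and 64 passed. Leaving out 1 array gave 24 to 170, 0 to 7 and 1 to 37. The difference from Wy-14643 (3185, or 2958 with the corn oil set B control, which the labels give to another compound) stayed within 1.5 times in every setting run, 2661 to 3199 without 1 array. The replicate block gave 176, 2 and 32. Deviations of same-numbered arrays correlated at 0.08, -0.06 and -0.03, and those of unlike-numbered arrays at -0.07 to 0.08. With so few arrays these correlations cannot settle whether the numbers pair the animals. No recomputed change of the 4 named transcripts against water, and no recomputed list median against the other controls, changed sign. The balance of higher and lower calls did change. Against pioglitazone 16 mg/kg it was 12 to 15, and 17 to 13 after quantile normalization. Against pioglitazone 63 mg/kg it was 1 to 0, and 1 to 8 with array weights. The fits of only the groups compared or of the water and thiazolidinedione groups ended the calls of ENSRNOT00000006188 (adjusted p = 0.162 and 0.124) and ENSRNOT00000010898 (0.139 and 0.118), the first of these also that of ENSRNOT00000012537 (0.0514), and against 6 control groups ENSRNOT00000012537 differed by 0.92 (adjusted p = 0.213), ENSRNOT00000055333 by 0.88 (0.224) and ENSRNOT00000010898 by -0.64 (0.0529). Signal over background is not in the table, so limits for dim transcripts are unknown.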
